A study of Mus musculus with 18 samples.

Results

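Glutathione S-transferase (GST) genes were examined in the liver of mice treated with GDF15, vehicle or pair-feeding. The members were 10 of the 16245 genes of the count table: 5 alpha-class genes (Gsta1, Gsta2, Gsta3, Gsta4 and the predicted gene Gm3776), 4 mu-class genes (Gstm1, Gstm2, Gstm3 and Gstm4) and 1 pi-class gene (Gstp1). They were chosen by name, with their fold changes between GDF15-treated and control livers already known, in which Gsta1 and Gm3776 stood out. Their values in the GDF15 comparisons are therefore given as a description. No p is given for a member there, and the counts of members past the thresholds of the fit over all genes support nothing.

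Bulk RNA sequencing had been performed on the liver of 18 male wild-type (WT) C57BL/6 mice (C57BL/6J in the study's methods), 6 per group. All 3 groups received a NASH diet (a fatty-liver diet high in fat and fructose) at 29 °C from 8 weeks of age and were single-housed. One group was injected with vehicle, and another with recombinant GDF15, a stress-induced cytokine that reduces appetite, once daily under the skin. The pair-fed group was given each day the amount of food that the GDF15-treated mice had eaten the day before, so that comparison with it separates GDF15 treatment from eating less. The labels name 3 doses of GDF15, from 0.3 to 5 nmol/kg, without assigning one to each mouse. The study's text and its figure legend name different doses for the sequenced livers, so the dose behind the values is unsettled here. Total counts per library ranged from 16508864 to 35301853.

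GST enzymes join the tripeptide glutathione to reactive, electron-poor molecules, which makes them easier to export and less able to damage proteins and DNA. The cytosolic enzymes are pairs of subunits, and they are sorted into classes by sequence, with alpha, mu and pi subunits abundant in mouse liver. Many GST genes are induced by the transcription factor NRF2 (Nfe2l2) and by the xenobiotic receptors PXR (Nr1i2) and CAR (Nr1i3). In bulk tissue, fewer cells of a type and less RNA per cell cannot be told apart.

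The alpha members other than Gsta3 lie in a cluster on chromosome 9 (RefSeq, GRCm38): Gsta4 at chr9:78191966-78209349, Gsta1 at chr9:78230669-78242683, Gm3776 at chr9:78257129-78269166 and Gsta2 at chr9:78331018-78347192, with another alpha gene, Gm10639, between Gm3776 and Gsta2. Gsta3 stands apart at chr1:21240565-21265575. The mu genes form a cluster on chromosome 3, in the order Gstm3 (chr3:107963696-107969174), Gstm2 (chr3:107981702-107986420), Gstm1 (chr3:108012250-108017973) and Gstm4 (chr3:108030571-108045179), and Gstp1 lies at chr19:4035411-4037912.

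Gsta1 and Gm3776 are near copies. Their longest coding transcripts (GENCODE M21) are identical at 99.5% of 874 aligned bases, and Gsta2 is identical to each of them at 97.2%. Only 7.81% of the 31-base words of Gsta1 transcripts and 4.38% of those of Gm3776 occur in no other alpha-class gene, compared with 43.6% for Gsta2, 99.4% for Gsta3 and 100% for Gsta4. A read from shared sequence fits both genes, so the separate levels of Gsta1 and Gm3776 are uncertain. Gstp1 shares most of its words with Gstp2 (42.2% occur in no other pi-class gene), whereas 77.6 to 97.0% of the words of the mu genes occur in 1 mu gene.

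The copies extend upstream of the genes. The 250 bases before the transcript start that the RefSeq promoter table uses (GRCm38.p6, plus strand) are shown for the near-identical pair, whose levels were lowest of all members in GDF15-treated mice, and for Gsta3, the alpha gene with higher levels in these mice. Over the 237 bases that align between Gsta1 (chr9:78230419-78230668) and Gm3776 (chr9:78256879-78257128), 1 base differs, set in capitals. In Gsta3 (chr1:21240335-21240584), where the table's start is 21240585 and the last 20 bases shown lie within the annotated gene, capitals mark a match to TGACNNNGC, the core of the antioxidant response element that NRF2 binds.
Gsta1: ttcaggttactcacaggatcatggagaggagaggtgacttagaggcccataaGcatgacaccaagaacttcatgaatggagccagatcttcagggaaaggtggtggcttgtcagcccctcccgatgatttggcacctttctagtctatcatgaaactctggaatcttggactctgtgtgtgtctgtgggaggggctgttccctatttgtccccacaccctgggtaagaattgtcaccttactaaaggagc
Gm3776: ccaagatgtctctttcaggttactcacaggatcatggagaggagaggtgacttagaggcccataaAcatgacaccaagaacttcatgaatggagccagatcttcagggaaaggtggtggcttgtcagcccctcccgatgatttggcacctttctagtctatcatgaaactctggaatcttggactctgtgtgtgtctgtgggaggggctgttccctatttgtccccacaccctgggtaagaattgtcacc
Gsta3: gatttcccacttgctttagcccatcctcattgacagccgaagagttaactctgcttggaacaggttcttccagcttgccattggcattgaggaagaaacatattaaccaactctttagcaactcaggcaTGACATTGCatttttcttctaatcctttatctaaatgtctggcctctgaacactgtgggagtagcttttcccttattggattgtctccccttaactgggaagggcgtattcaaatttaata

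The core motif, searched on both strands, was found in 1 of the 11 promoter windows (300 bases, up to 50 past the start) of 9 members, that of Gsta3, and in 12.4% of all 32851 windows in the table. There was no entry for Gsta4. TATAAA was present in windows of Gsta2 and Gstm1 (13.6% of all windows), and TTGCNNAA, a motif of C/EBP factors, in windows of Gsta3 and Gstm2 (10.8% of all windows). The TATAAA match of Gstm1 lay on the gene's strand, 30 bases before the transcript start of its window. That of Gsta2 lay on the opposite strand, 246 bases before the start. TGACNNNGC and TTGCNNAA do not overlap in the Gsta3 window, where they start 121 and 137 bases before the transcript start of the table. A match is a description of the letters, not a binding site, and a window without a match is not shown to lack one. For the antioxidant response element only TGACNNNGC was searched. Forms with another base in the core, such as TGAGTCAGC in the Gstp1 window, and sequence farther upstream were not searched.

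Levels between genes were compared as normalized counts per kilobase of transcript. In vehicle-treated mice, Gstm1, the main mu subunit of mouse liver, was highest at 35460 ± 3611 per kb (SD, n = 6), followed by Gstp1 at 23354 ± 1392 and Gsta3 at 19679 ± 2357. The other members were far lower, from Gstm3 at 3516 ± 1184 and Gstm2 at 2597 ± 492 (SD, n = 6), which differed by less than the larger SD, down to Gm3776 at 427 ± 133. Between these lay Gsta4 at 1248 ± 190 per kb, then Gstm4, Gsta1 and Gsta2, of which Gstm4 did not differ from Gsta1 by more than the larger SD, nor Gsta1 from Gsta2. Pair-fed mice had the same order. In GDF15-treated mice Gsta3, at 24186 ± 2725 per kb, came within the spread of Gstm1 at 24792 ± 4127 and stood above Gstp1 at 17541 ± 3883, while Gsta1 (50.6 ± 23.0) and Gm3776 (23.6 ± 27.2) were at the bottom.

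Among alpha-class genes, Gsta1, a subunit that conjugates many electrophiles, had between 389 and 1130 normalized counts in vehicle-treated mice (median 882.5) and between 345 and 1357 in pair-fed mice (median 599). In GDF15-treated mice it had 70.2, 50.6, 57.3, 15.41, 45.5 and 26.5 normalized counts. Every GDF15-treated mouse lay below every mouse of both other groups, and the GDF15 mean was 5.57% of the vehicle mean and 6.5% of the pair-fed mean. The log2 fold change was −4.16 (SE 0.38) against vehicle and −3.93 against pair-fed mice.

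Gm3776, the near copy, ranged from 198 to 538 in vehicle-treated mice (median 382) and from 131 to 551 in pair-fed mice (median 259). Its GDF15 values were 64.1, 11.4, 7.17, 0, 31.2 and 9.64 normalized counts, so that 1 library had no count, which allows up to 3 counts or 3.85 normalized counts there. The groups were again fully separate, with a log2 fold change of −4.17 (SE 0.61) against vehicle and −3.89 against pair-fed mice.

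Gsta2 had 427 to 625 normalized counts in vehicle-treated mice (median 493), 365 to 514 in pair-fed mice (median 455) and 59.1 to 343 in GDF15-treated mice (median 248). All 6 GDF15-treated mice lay below the other 12, but the difference was far smaller than for Gsta1, with log2 fold changes of −1.17 (SE 0.25) and −0.96 against vehicle and pair-fed mice. The single GDF15-treated mouse at 59.1 (replicate 4) pulled the mean down, and without it the log2 fold change against vehicle was −0.97. The sum of the 3 genes does not depend on how shared reads were divided among them. Gsta1, Gsta2 and Gm3776 together averaged 1678 ± 458 normalized counts (SD, n = 6) in vehicle-treated, 292 ± 136 in GDF15-treated and 1432 ± 544 in pair-fed mice. That is a log2 difference of −2.52 against vehicle and −2.29 against pair-fed mice.

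Gsta4, which conjugates the lipid peroxidation product 4-hydroxynonenal, overlapped between groups. It ranged from 976 to 1435 in vehicle-treated, from 430 to 1120 in GDF15-treated and from 982 to 1215 in pair-fed mice, and 3 GDF15-treated mice lay below all others. Its log2 fold changes were −0.49 (SE 0.16) and −0.28 against vehicle and pair-fed mice, and without GDF15 replicate 4 they were −0.35 and −0.15.

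Gsta3, known in mice for detoxifying aflatoxin epoxide, was the member with a higher level. It had 24254 to 33409 normalized counts in vehicle-treated mice (median 28714), 23481 to 30465 in pair-fed mice (median 29773) and 28367 to 39121 in GDF15-treated mice (median 35933). Of the GDF15-treated mice, 5 lay above every vehicle-treated and every pair-fed mouse, and replicate 4 lay within their range. The log2 fold change of Gsta3 was 0.30 (SE 0.09) against vehicle and 0.31 against pair-fed mice. It differed between replicate sets: with replicates 1 to 3 alone it was 0.51 against vehicle, and with replicates 4 to 6 alone 0.09.

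**Figure D1:**
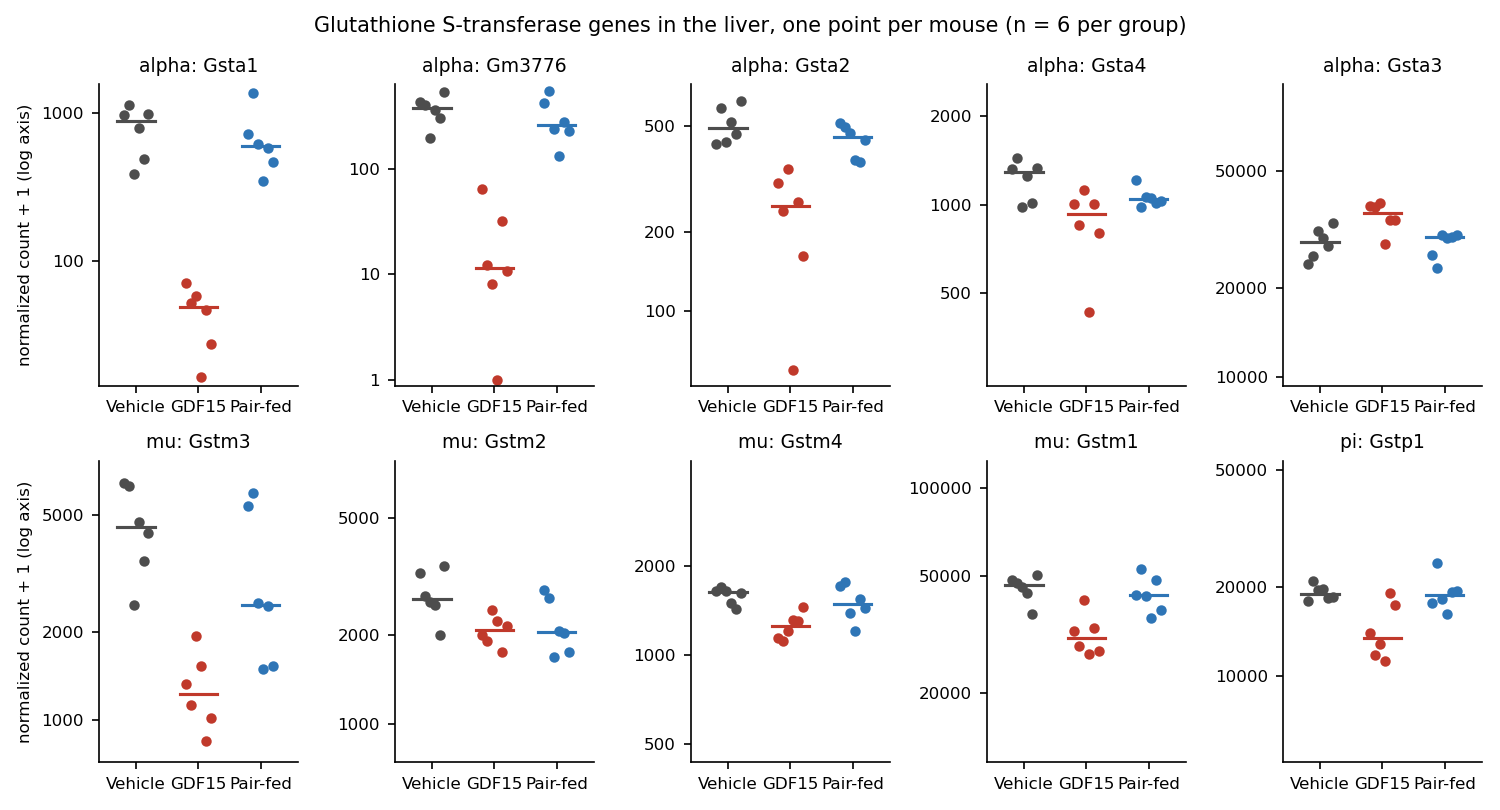
Normalized counts plus 1 (log axis, each panel with its own range) of the 10 genes, with 1 point per mouse, 6 mice per group, and a line at the group median. Gsta1, Gm3776 and Gsta2 have all 6 GDF15-treated mice below the other 12, Gsta3 has 5 of 6 above them, and Gstm3 varies widely among vehicle-treated and pair-fed mice.

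In the mu class, Gstm3 differed most. It had 6413, 6274, 2460, 4726, 3464 and 4321 normalized counts in vehicle-treated mice, 5352, 5938, 2497, 1495, 2435 and 1526 in pair-fed mice and 1328, 1126, 1931, 1523, 851 and 1015 in GDF15-treated mice. All GDF15-treated mice were below all vehicle-treated mice, whereas pair-fed replicates 4 and 6 lay among them. The log2 fold change was −1.83 (SE 0.36) against vehicle and −1.31 against pair-fed mice. Against pair-fed mice it was −1.65 with replicates 1 to 3 and −0.68 with replicates 4 to 6, which is no longer past the threshold.

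Gstm1 ranged from 37337 to 50548 normalized counts in vehicle-treated mice (median 46881), from 36162 to 52794 in pair-fed mice (median 43104) and from 27220 to 41521 in GDF15-treated mice (median 30836). In 5 of the 6 GDF15-treated mice it was below every other mouse, and replicate 3, at 41521, was within the range of the controls. Its log2 fold change was −0.52 against vehicle and −0.45 against pair-fed mice. Gstm4 was lower by a similar but smaller amount, with log2 fold changes of −0.35 and −0.27, and again depended on the replicate set, at −0.53 against vehicle with replicates 1 to 3 and −0.16 with replicates 4 to 6. Against pair-fed mice these sets gave −0.49 and −0.04 for Gstm4.

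Gstm2 set itself apart from the other mu genes in that its pair-fed values lay with the GDF15 values. It had a median of 2658 normalized counts (range 2004 to 3441) in vehicle-treated mice, 2053 (1685 to 2858) in pair-fed mice and 2084 (1759 to 2434) in GDF15-treated mice. Its log2 fold change was −0.41 against vehicle but −0.06 against pair-fed mice.

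Gstp1, a pi-class subunit abundant in mouse liver, had 17907 to 21041 normalized counts in vehicle-treated mice and 16180 to 24243 in pair-fed mice. GDF15-treated mice had 14042, 11750, 12805, 11271, 19099 and 17442. Replicates 1 to 4 were below all controls and replicates 5 and 6 overlapped with them. The log2 fold change was −0.41 against both vehicle and pair-fed mice, and it was −0.59 against vehicle with replicates 1 to 3 and −0.24 with replicates 4 to 6.

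Counted together, 4 of the 10 members (Gsta1, Gm3776, Gsta2 and Gstm3) had an adjusted p under 0.05 and an absolute log2 fold change above 1 for GDF15 against vehicle, all lower, beside 5.66% of the 16242 genes tested (DESeq2). At an adjusted p under 0.05 alone, 9 members were lower, beside 15.8% of all genes, and Gsta3 was higher, beside 14.3%. Against pair-fed mice, 3 members (Gsta1, Gm3776 and Gstm3) passed both thresholds, beside 2.98% of all genes, and at an adjusted p under 0.05 alone 7 were lower (12.2% of all genes) and 1 was higher (11.8%). The level of 3 members was lower in all 6 GDF15-treated mice than in all 12 others, which held for 3.39% of the genes in the table. These counts restate how the members were chosen. The median log2 fold change of the members was −0.50 against vehicle and −0.43 against pair-fed mice, beside 0.00 and −0.01 over all genes. Both comparisons use the same GDF15-treated mice.

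One GDF15-treated mouse recurred at the bottom of the range. Replicate 4 had the lowest GDF15 value of 7 members, among them all 5 alpha genes, Gstm1 and Gstp1, and replicate 3 had the highest value of 6 members. In the pair-fed group, replicate 4 was lowest for 6 members and replicate 2 highest for 6.

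**Figure D2:**
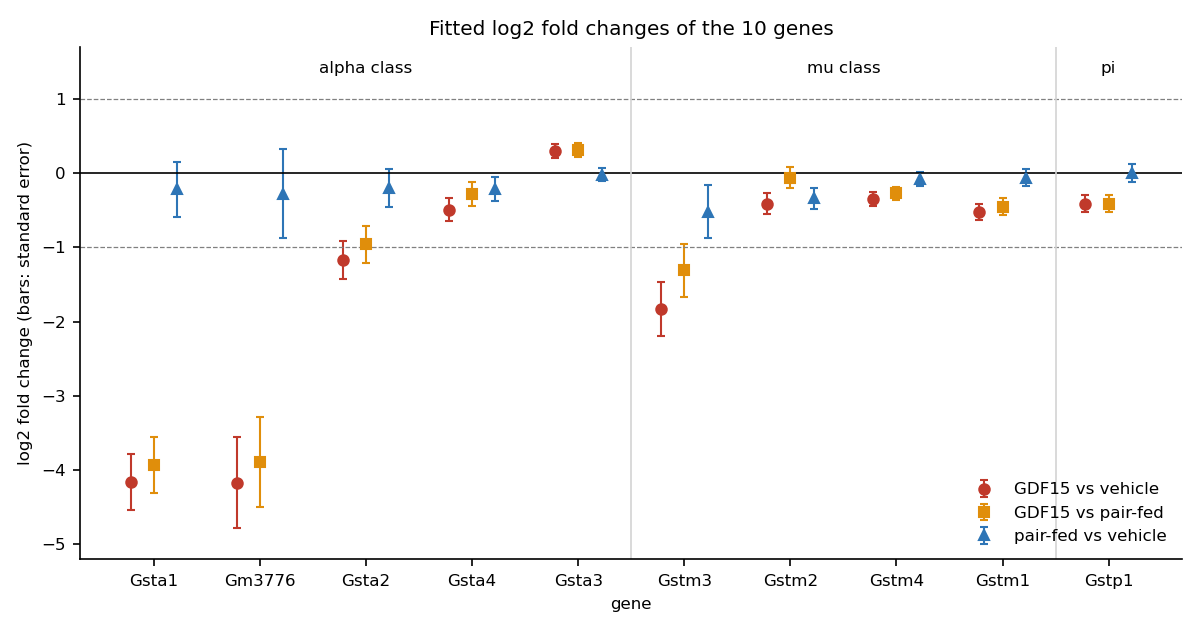
Fitted log2 fold changes of the 10 genes with standard errors (DESeq2, 6 mice per group) for GDF15 against vehicle (circles), GDF15 against pair-fed (squares) and pair-fed against vehicle (triangles), with dashed lines at 1 and −1. Gsta1 and Gm3776 lie near −4 in both GDF15 comparisons, Gsta3 lies above 0, and all pair-fed against vehicle values lie between −0.52 and 0.

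The classes differed in direction when their members were summed. The alpha sum averaged 31570 ± 3377 normalized counts (SD, n = 6) in vehicle-treated, 36400 ± 4310 in GDF15-treated and 30820 ± 2395 in pair-fed mice, a log2 difference of 0.21 and 0.24 for GDF15 against vehicle and pair-fed mice. The mu sum averaged 54675 ± 6063, 36593 ± 5616 and 50595 ± 8208, which is −0.58 and −0.47. The pi class, with Gstp1 as its member, was at −0.41 in both.

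The alpha sum was carried by Gsta3, which made up 90.7% of the alpha counts in vehicle-treated mice and 96.9% in GDF15-treated mice. The other 4 alpha genes together averaged 2898 ± 639 in vehicle-treated, 1160 ± 374 in GDF15-treated and 2490 ± 543 in pair-fed mice (SD, n = 6). Within the mu class, Gstm1 held 83.7% of the counts in vehicle-treated and 87.2% in GDF15-treated mice, and the share of Gstm3 was 8.35% and 3.53%.

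As a share of all counts of the 10 members, the alpha class was 30.0% ± 2.75 (SD, n = 6) in vehicle-treated, 30.9% ± 4.41 in pair-fed and 41.7% ± 2.85 in GDF15-treated mice, and the GDF15 range (38.6 to 46.4%) did not overlap with that of the vehicle (26.1 to 32.4%) or pair-fed mice (23.5 to 35.7%). The mu class was 51.8% ± 3.22 (SD, n = 6) in vehicle-treated mice and 50.04% ± 4.02 in pair-fed mice, and 41.8% ± 3.25 in GDF15-treated mice. With levels per kilobase, the alpha share was 25.8% and 35.6% in vehicle-treated and GDF15-treated mice.

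The size of the alpha difference depended on which mice and which scale were used. It was 0.40 against vehicle in replicates 1 to 3 and 0 in replicates 4 to 6. With counts scaled to the library total in place of size factors, which moves the median of all genes to −0.15 against vehicle and −0.16 against pair-fed mice, the alpha sum was at 0.04 and 0.08, above the median of all genes, and the mu sum at −0.75 and −0.63, below it.

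**Figure D3:**
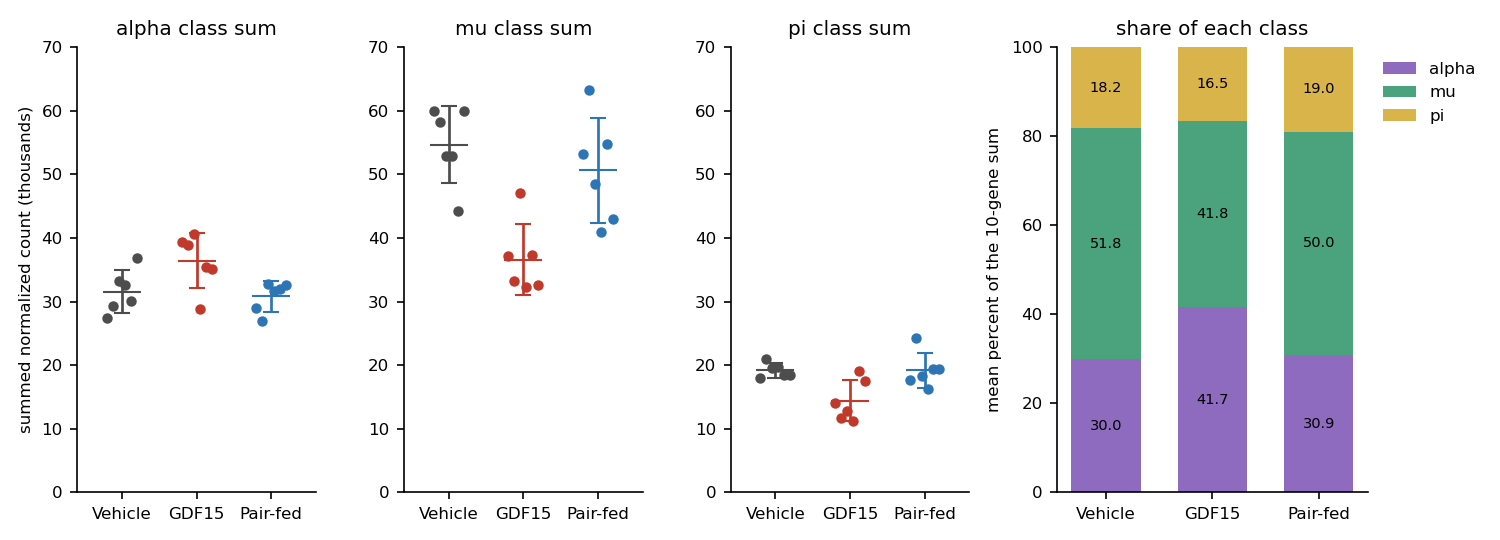
Summed normalized counts of the alpha, mu and pi members by mouse (points, with mean and SD as bars, n = 6 per group, axis from 0), and the mean share of each class in the 10-gene sum. The alpha share is 41.7% in GDF15-treated mice against 30.0 and 30.9% in vehicle-treated and pair-fed mice.

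No member differed detectably between pair-fed and vehicle-treated mice. With DESeq2, 0 of 10 members passed both thresholds, beside 0% of all genes, and edgeR called 0 members as well. The lowest DESeq2 adjusted p of a member was 0.998. Gstm2 was the 1 member with an unadjusted p under 0.05 (log2 fold change −0.34, DESeq2 adjusted p = 0.998). The log2 fold change was −0.22 (SE 0.37) for Gsta1, −0.28 for Gm3776, −0.52 (SE 0.36) for Gstm3, −0.02 for Gsta3 and 0.00 for Gstp1. Gstm3 was the exception when replicates 4 to 6 were taken alone, at −1.20 and past both thresholds.

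Whether members varied together was examined in the 12 mice that received no GDF15, a test chosen after the values were seen. Each mouse's log2 level was taken relative to the mean of its group, and Gsta1 was set against the 9 other members and 4 sums of cell-type markers, with p-values from 100000 permutations within groups, adjusted over the 13 relations. Gm3776 followed Gsta1 (Pearson r = 0.916, permutation adjusted p = 0.00026, Spearman rho = 0.916, permutation adjusted p = 0.00065, n = 12), but the pair share reads.

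Gstm3, on another chromosome and of another class, followed Gsta1 nearly as closely, with r = 0.887 (permutation adjusted p = 0.00026) and rho = 0.881 (permutation adjusted p = 0.00078). The share of all genes that followed Gsta1 this closely was not determined, so the relation is not shown to be particular to GST genes. The relation of Gstm3 to Gsta1 was present in vehicle-treated mice (r = 0.920, n = 6) and in pair-fed mice (r = 0.897, n = 6). It had an r of 0.813 without the 2 mice farthest from the median of Gsta1. In both groups, replicates 1 and 2 lay above the group mean for both genes. The permutations within groups did not account for replicate number, so the 2 groups are not shown to be separate support. Among GDF15-treated mice r was 0.0204, at Gsta1 levels near the bottom of its range. In the same mice Gsta1 had r of 0.959 with Gsta2, 0.93 with Gsta3, 0.908 with Gsta4 and 0.834 with Gm3776. With Gstm1, Gstm2, Gstm4 and Gstp1, r was 0.67, −0.265, −0.698 and 0.137. GDF15 replicate 4 had the lowest GDF15 value of every alpha member. Differences between groups were not tested.

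For Gstm1 (r = 0.757) and Gstm4 (r = 0.699) the permutation adjusted p was 0.0230 and 0.0394 by Pearson but 0.0738 for both by Spearman. Gsta2 (r = 0.643), Gsta4, Gstm2 and Gstp1 had adjusted p above 0.05 by both measures, and Gsta3 had an r of −0.586, also above 0.05 (permutation adjusted p = 0.0731). Gsta1 was also higher in mice with a lower sum of hepatocyte markers (r = −0.802, permutation adjusted p = 0.00927, rho = −0.776, permutation adjusted p = 0.0198, and r = −0.708 without the 2 farthest mice). For the hepatocyte sum, replicates 1 and 2 of both groups lay below their group mean and the other replicates above it. The sums of cholangiocyte, macrophage and stellate cell markers had r of 0.556, 0.610 and 0.560 with Gsta1, with adjusted p above 0.05. The sums add normalized counts, so abundant genes weigh most. In vehicle-treated mice Alb averaged 1231856.1 of a hepatocyte sum of 1645826.5, and Spp1 4867.3 of a cholangiocyte sum of 5915.4. The part of these cell types in the variation of the members was not tested.

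**Figure D4:**
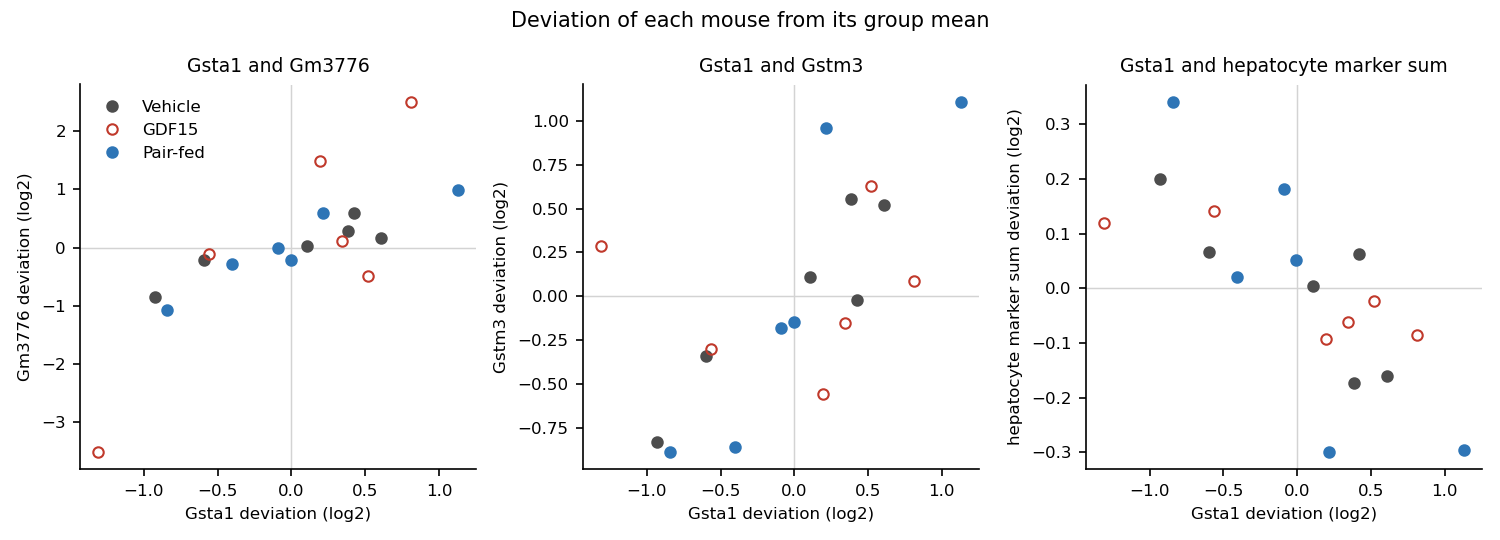
Deviation of each mouse from its group mean on the log2 scale for Gsta1 (horizontal) against Gm3776, Gstm3 and the sum of hepatocyte markers (vertical). Filled points are the 12 vehicle-treated and pair-fed mice used in the test, with r of 0.916, 0.887 and −0.802, and open points are the 6 GDF15-treated mice.

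Outside the family, 10859 genes with a mean of at least 50 normalized counts were ranked by the mean absolute difference from a member's pattern over the 18 mice, on the log2 scale relative to each gene's mean. The values were not centred within groups, so the difference between GDF15-treated and other mice enters the ranking. It is a description and no measure of covariation among mice of a group. The 3 nearest to Gm3776 were Sprr1a (difference 0.672), Cidec (0.844), which encodes a lipid droplet protein, and Ubd (0.888), which encodes a ubiquitin-like protein. Sprr1a had a mean of 244 normalized counts in vehicle-treated, 235 in pair-fed and 6.56 in GDF15-treated mice. The nearest to Gstm3 were the mitochondrial carrier gene Slc25a24 (0.270), Ddit4l (0.306) and Anxa5 (0.319), and those nearest to Gstp1 were Cox19 (0.117), the glutathione reductase gene Gsr (0.118) and Rspo3 (0.123).

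No other GST gene passed both thresholds. Of 20 in the table, 16 had a mean of at least 10 normalized counts, and DESeq2 and edgeR each called 0 in every comparison, while 9 had an unadjusted p under 0.05 for GDF15 against vehicle, 11 against pair-fed mice and 1 for pair-fed against vehicle, beside 38.7%, 33.8% and 4.42% of all genes. At an adjusted p under 0.05 against vehicle, 3 of the 20 fell and 5 rose, beside 15.8% and 14.3% of all genes, so the number that fell is near the background. These genes were named after their values were seen. The 3 that fell were Mgst3, a microsomal enzyme (log2 fold change −0.74, SE 0.14, DESeq2 adjusted p = 2.69e-06), Hpgds, the prostaglandin D synthase of immune cells (−0.96), and Gstm5 (−0.38).

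The 5 that rose were Gstm7 (0.38), the omega-class gene Gsto1 (0.42), the theta-class genes Gstt1 (0.24) and Gstt3 (0.64), and Gstz1 (0.24), which acts in tyrosine breakdown. Gstm7, of the same chromosome 3 cluster as the mu members, had a mean of 1482 normalized counts in GDF15-treated mice against 1142 in vehicle-treated and 1084 in pair-fed mice (DESeq2 adjusted p = 2.9e-05 and 5.33e-07). Against pair-fed mice, Gstm5, Mgst3, Hpgds and Gstp2 fell and Gstm6, Gstm7, Gsto1, Gstk1 and Gstz1 rose, beside 12.2% and 11.8% of all genes. Mgst1, the most abundant GST gene of the table at 59431 normalized counts in vehicle-treated mice, had 55624 in GDF15-treated mice (log2 fold change −0.10, DESeq2 adjusted p = 0.231).

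Gstp2, the near copy of Gstp1, was highest in pair-fed mice. It had a mean of 177 ± 24.3 normalized counts (SD, n = 6) in vehicle-treated, 140 ± 43.2 in GDF15-treated and 266 ± 71.8 in pair-fed mice. It fell against pair-fed mice (log2 fold change −0.93, SE 0.20, DESeq2 adjusted p = 4.81e-05), whereas against vehicle it was at −0.34 (adjusted p = 0.183), and for pair-fed against vehicle at 0.59 (adjusted p = 0.934). Because Gstp1 had 19174 normalized counts in vehicle-treated mice and shares sequence with Gstp2, the level of Gstp2 is uncertain.

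**Figure D5:**
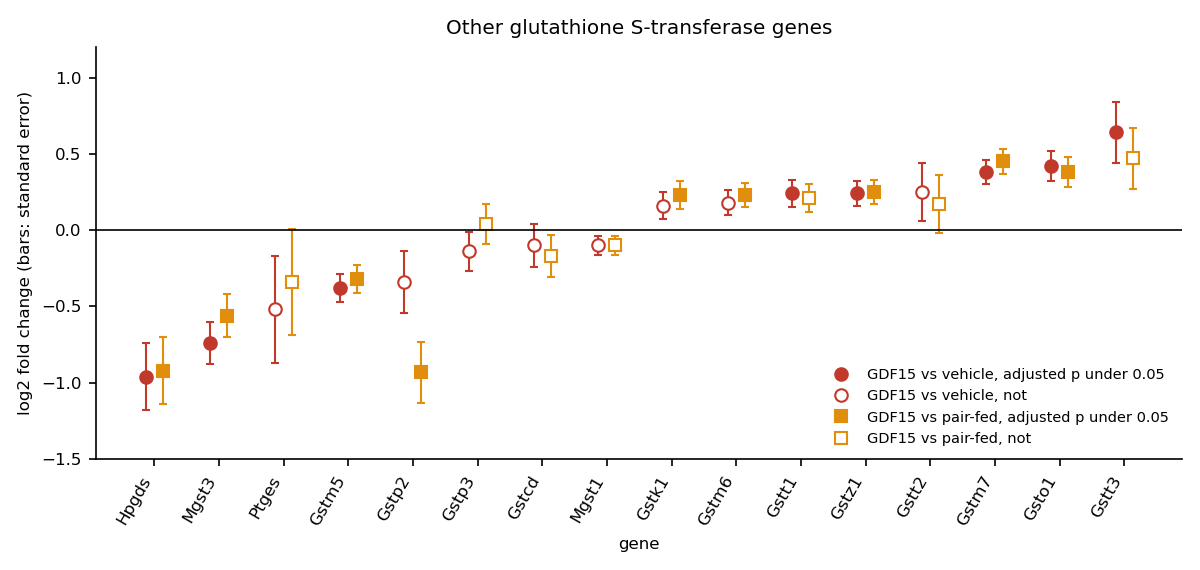
Log2 fold changes with standard errors of the 16 other GST genes with a mean of at least 10 normalized counts, for GDF15 against vehicle (circles) and against pair-fed mice (squares). Filled symbols have a DESeq2 adjusted p under 0.05, which is the case for 3 genes below 0 and 5 above 0 against vehicle.

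Around the transferases, 34 genes of glutathione synthesis, reduction, use and export were read from a list. Against vehicle 13 fell and 8 rose at an adjusted p under 0.05, beside 15.8% and 14.3% of all genes. Past both thresholds, beside 5.66% of all genes, were 4, all lower: the peroxidase genes Gpx8 (−1.38, SE 0.26), Gpx7 (−1.26, SE 0.24) and Gpx2 (−3.89, SE 1.11), and the export pump gene Abcc4 (−1.14, SE 0.29). In vehicle-treated mice Gpx8, Gpx7 and Abcc4 averaged 39.4, 44.2 and 81.5 normalized counts, and Gpx2 5.78, near the floor of 3 counts. Short of the fold threshold, the more abundant Gpx4 went from 10640 in vehicle-treated to 5885 in GDF15-treated mice (−0.85, DESeq2 adjusted p = 6e-17). Gss was at −0.84 (adjusted p = 2.52e-08) and Gpx1 at −0.04 (adjusted p = 0.71). Against pair-fed mice 7 fell and 7 rose, beside 12.2% and 11.8% of all genes, and Gpx7 (−1.16, SE 0.24, DESeq2 adjusted p = 3.74e-05) passed both thresholds, beside 2.98% of all genes. The median log2 fold change of the list was −0.11 against vehicle and −0.14 against pair-fed mice.

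Of 15 other known NRF2 targets, 9 fell and 0 rose against vehicle at an adjusted p under 0.05, and 7 fell and 0 rose against pair-fed mice (DESeq2). Over all genes, 15.8% fell and 14.3% rose against vehicle, and 12.2% and 11.8% against pair-fed mice. The medians of the list were −0.36 and −0.25. Past both thresholds were Cbr3, a carbonyl reductase, and Srxn1, a sulfiredoxin. Cbr3 had 69.8 to 177 normalized counts in vehicle-treated, 36.3 to 176 in pair-fed and 8.44 to 18.6 in GDF15-treated mice, with log2 fold changes of −3.02 (SE 0.35, DESeq2 adjusted p = 7.96e-16) and −2.81 (SE 0.35, adjusted p = 1.22e-13). Srxn1 was at −1.10 and −1.07. The list genes with an adjusted p above 0.05 against vehicle were Txnrd1 (−0.11), Txn1 (−0.12), Pgd (−0.26), G6pdx (0.36), Me1 (0.18) and Osgin1 (0.08). Some known targets were counted in the glutathione list instead. Among them against vehicle, Gclc was at −0.56 (DESeq2 adjusted p = 0.0166), Gclm at 0.00 (adjusted p = 0.987) and Slc7a11 at −0.03 (adjusted p = 0.961).

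Of 14 regulators, Nfe2l2 itself fell, from a mean of 2458 normalized counts in vehicle-treated and 2501 in pair-fed mice to 1849 in GDF15-treated mice (log2 fold changes of −0.41 and −0.44, DESeq2 adjusted p = 0.000241 and 0.000122). Keap1, which restrains NRF2, was at 0.01 and 0.03 (adjusted p = 0.886 and 0.746). The regulators that rose against vehicle numbered 7, beside 14.3% of all genes, among them Nr1i2 (0.25, adjusted p = 0.0267) and Nr1i3 (0.69, adjusted p = 0.0329), while against pair-fed mice Nr1i2 was at 0.19 and Nr1i3 at 0.60 (adjusted p = 0.122 and 0.0755). Regulator RNA is not a measure of NRF2, PXR or CAR activity.

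Cell-type markers moved with treatment as well, beside 15.8% of all genes lower and 14.3% higher against vehicle. Of 7 hepatocyte markers in the table, 6 rose against vehicle, and their sum ranged from 1452987 to 1882590 normalized counts in vehicle-treated and from 2104166 to 2473218 in GDF15-treated mice. Of 8 cholangiocyte markers 7 fell against vehicle, with a summed level of 2860 to 9378 in vehicle-treated, 2568 to 6708 in pair-fed and 1421 to 2498 in GDF15-treated mice, but 2 (Spp1 and Tspan8) fell against pair-fed mice. Of 8 macrophage and leukocyte markers 8 fell against vehicle, and of 8 stellate cell markers 7 fell. Against pair-fed mice 6 of each list fell, and 12.2% of all genes fell in that comparison. The summed levels of these 2 lists were 4639 to 9480 and 5621 to 9974 in vehicle-treated mice. They were 4721 to 7941 and 4928 to 7846 in pair-fed mice, and 2209 to 4833 and 2466 to 3739 in GDF15-treated mice. Of 8 pericentral hepatocyte markers 4 rose against vehicle (Cyp2e1, Slc1a2, Cyp1a2 and Lgr5) and 1 fell (Rhbg), and of 8 periportal ones 6 rose and 1 fell (Aldh1b1). Of 8 endothelial markers Clec4g rose and Lyve1 fell. The markers in these counts were named after their values were seen. No marker of these lists had a mean below 3 normalized counts. Most of the hepatocyte sum was Alb and most of the cholangiocyte sum was Spp1. The part of these markers in the levels of the members was not tested.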

How the data were processed

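Paired-end RNA sequencing of liver (2 × 50 bp) had been trimmed with Trim Galore and quantified with Salmon. The authors deposited estimated counts as whole numbers, 1 row per gene symbol, without library-size scaling, and all 18 columns were used. The submitters' processing notes name mm10, and the transcriptome and tool versions are not given in the sources used here. The lowest row total was 5.

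Counts were fitted with DESeq2 1.42.0 (R 4.3.3, Wald test, all 18 samples, group as the factor), the tool of the study's methods, with a call at an adjusted p under 0.05 and an absolute log2 fold change above 1. p-values were adjusted over all genes. Fold changes were not shrunken. Levels are counts divided by DESeq2 size factors, and "per kb" divides by the longest coding transcript of GENCODE M21 (30 GST genes). Sequences were compared with Biopython 1.88. Groups came from the titles, and each sample is 1 mouse.

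The members and gene lists were chosen with earlier results of these data known. Named were all members, called genes of the lists (at most 4 per list), the 3 most abundant other GST genes (Mgst1, Gstz1 and Gstt1), Nfe2l2, Keap1, Nr1i2 and Nr1i3, and the 3 genes with the most similar pattern per class. Further genes of the glutathione and NRF2 lists were named after their values were seen. Alternatives were edgeR 4.0.16 (quasi-likelihood), TMM or library-total scaling, count filters, each mouse left out, replicate sets, a replicate block and the near-identical alpha genes as 1 feature. The fit was tested on simulated data of 16245 genes, in which 98% of 100 genes changed 4-fold were called for GDF15 against vehicle. A floor of 3 counts covers counting error only.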

Additional observations from a re-analysis of the deposited data

Results flagged for a closer look

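In 36 groups of 6 mice (10 members and the alpha and mu sums in 3 groups), 3 had a mouse far from the others by Dixon's test, while chance gives about 1.8. Gsta1 had 1356.5 normalized counts in pair-fed replicate 2, against 344.7 to 717.5 in the other pair-fed mice. Gsta4 had 1215.3 in pair-fed replicate 1, against 982.2 to 1060.9 in the others. The summed mu class had 47092.8 in GDF15 replicate 3, against 32296.7 to 37332.0 in the others.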

How the results depend on the processing

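Of 801 alternative fold changes of members, 780 stayed on the same side of the thresholds and within 1 SD of the reported value, and none of the called ones changed sign. With edgeR, TMM sizes, count filters, or only the 12 mice compared, the same numbers of members were called. With Gsta1, Gsta2 and Gm3776 as 1 feature, 2 features were called against vehicle, and at the adjusted p alone 10 members were called against vehicle and 8 against pair-fed mice. In replicates 4 to 6 alone, 1 member (Gstm3) was called for pair-fed against vehicle. Leaving out 1 mouse gave 3 to 4 called members in both GDF15 comparisons. Gsta2 was not called against vehicle without GDF15 replicate 4 (−0.97) or in replicates 1 to 3 (−0.71), and was called against pair-fed mice in 6 of 26 alternatives, without GDF15 replicate 1 (−1.06) or 3 (−1.12) or pair-fed replicate 4 or 5 (−1.01 each) among them.

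Other GST genes called ranged from 0 to 1 against vehicle and from 0 to 2 against pair-fed mice when 1 mouse was left out: Hpgds (lowest −1.11) against vehicle without vehicle replicate 3, 4 or 6 or GDF15 replicate 1 or 3, Gstp2 and Hpgds against pair-fed mice without GDF15 replicate 3, and Gstp2 without pair-fed replicate 4. In replicates 1 to 3, 1 was called against vehicle (Ptges) and 2 against pair-fed mice (Gstt3 and Ptges), and in replicates 4 to 6, 1 in each (Hpgds). At the adjusted p alone, 8 and 9 were called. The alpha sum was at 0.40 and 0.43 against vehicle and pair-fed mice in replicates 1 to 3, at 0 and 0.05 in replicates 4 to 6, and at 0.08 against pair-fed mice with counts scaled to the library total. The causes were not tested.

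The replicate numbers were not taken to pair the mice, since in no comparison did every same-numbered pair correlate above 0.1 in its deviations. The correlations ran from −0.251 to 0.268 for GDF15 and vehicle, from −0.261 to 0.196 for GDF15 and pair-fed, and from 0.0435 to 0.596 for pair-fed and vehicle, where all 6 were positive, 4 were above 0.1 and the mean was 0.205 against −0.0412 for other numbers. A mouse correlated best with its own number in 0, 2 and 1 of 6 cases. With a replicate block, 4 members were called against vehicle, 4 against pair-fed mice (Gsta2 at −1.04 was added) and 0 for pair-fed against vehicle. With 6 mice per group and 1 tissue, protein and enzyme activity were not measured, and levels of near-identical genes rest on how Salmon split shared reads.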
